A study of Mus musculus with 16 samples.

Results

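Ptprc, which encodes the leukocyte surface phosphatase CD45, and Hnrnpll, which encodes an RNA-binding regulator of Ptprc splicing, were followed in mouse spleen cells. They are 2 of the 11713 genes in the deposited RNA table and were found by symbol. They were set against 2 of 30 antibodies measured on the same cells, B220, which detects a B-lineage form of CD45, and CD45 itself. The spleens came from 9-month-old female BALB/cJ mice, with no treatment or mutation in the labels, and were profiled by CITE-seq, in which droplets capture the RNA and DNA-tagged antibodies of a cell. Of the 16 samples, 4 hold RNA and 4 hold antibody tags of a source named Main1, and as many of each come from a source named Main2, and each source was treated as 1 library. Nothing in the labels ties the sources to separate animals. The p-values measure how gate differences varied between these libraries, with variance shared over gates and across genes or antibodies. That spread may be technical.

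CD45 is carried by leukocytes and lost as erythroid cells mature, and it removes inhibitory phosphate from Src-family kinases, which sets the threshold of antigen receptor signalling. Its extracellular part is lengthened by variable exons 4, 5 and 6, known as A, B and C, which B cells mostly keep and activated T cells mostly skip. Hnrnpll protein represses their inclusion, with known roles in memory T cells and plasma cells, and the B220 epitope depends on exon A and on glycans of the B-lineage form.

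The variable exons are shown because B220 reads a form that holds them, while the RNA table gives 1 count per gene. Ptprc (ENSMUSG00000026395) lies on the minus strand at chr1:138062861-138175708 and Hnrnpll (ENSMUSG00000024095) on the minus strand at chr17:80029487-80062334, in the GENCODE vM21 annotation of GRCm38, the same assembly as the mm10 build in the submitters' processing notes. The sequences below are the exons of transcript Ptprc-207, 5′ to 3′ on the transcribed strand. Capitals mark every match, overlaps included, to ACAC, a CA-rich motif searched on this strand only, because proteins of the hnRNP L family are known to bind CA-rich RNA.
Ptprc exon 4 (A), chr1:138122456-138122584: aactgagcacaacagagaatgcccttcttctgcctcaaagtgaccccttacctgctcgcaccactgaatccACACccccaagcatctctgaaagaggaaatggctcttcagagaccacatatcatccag
Ptprc exon 5 (B), chr1:138120020-138120166: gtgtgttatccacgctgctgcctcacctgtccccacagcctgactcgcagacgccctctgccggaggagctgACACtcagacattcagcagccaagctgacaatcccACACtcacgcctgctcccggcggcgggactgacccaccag
Ptprc exon 6 (C), chr1:138117754-138117894: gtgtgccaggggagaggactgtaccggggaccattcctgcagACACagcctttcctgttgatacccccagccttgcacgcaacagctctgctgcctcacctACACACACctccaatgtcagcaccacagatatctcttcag
The exons are 129, 147 and 141 bases long, and each length is a multiple of 3. ACAC had 1, 2 and 4 matches in exons 4, 5 and 6, and 12 of the other 30 exons of this transcript (40.0%) also held it. Windows of the same lengths in the rest of the transcript held it in 28.6%, 31.7% and 30.7% of cases. A match describes letters, not a bound site. Transcript Ptprc-203 lacks these exons and joins exon 3 to exon 7. The junctions of both forms are shown with 15 bases on each side and the downstream exon in capitals.
Ptprc-207, exons 3 and 4: ctacacccagtgatgAACTGAGCACAACAG
Ptprc-203, exons 3 and 7: ctacacccagtgatgGTGCCAGCCTCACAA
Exon 6 ends 4461 bases before the 3′ end of the 5074-base Ptprc-207. None of the RNA values below separates these forms.

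**Figure D1:**
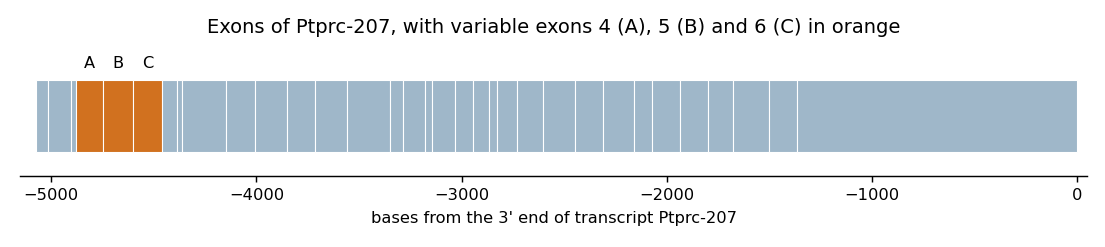
Exons of transcript Ptprc-207 drawn to scale, with distance in bases from its 3′ end on the horizontal axis. The variable exons 4, 5 and 6 (orange) lie near the 5′ end, and exon 6 ends 4461 bases from the 3′ end.

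The tables held 3179 droplets of Main1 with 7964712 unique molecular identifiers (UMIs, counted RNA molecules) and 3918 of Main2 with 10174799, and the median droplet had 1789 and 1778 UMIs. Antibody counts were 15028386 in Main1 and 17467311 in Main2. The libraries shared 14 droplet barcodes. Antibodies and marker genes other than the 4 readouts placed 6453 of 7097 droplets (90.9%) in 1 of 6 gates, while 543 met no gate and 101 met more than 1 and were left out. The T gate held 345 droplets in Main1 and 377 in Main2, the NK gate 31 and 34, the myeloid gate 193 and 225, the plasma gate 16 and 16, the erythroid gate 23 and 15, and the B gate 2277 and 2901. Each gate carried its own markers, but these markers also chose the gates, so the direction of the sums below was built in. Levels are given as CPM, the UMIs of a gene scaled to a common total for each gate and library. The summed level of 8 T markers was 6835 and 7047 CPM in the T gate of Main1 and Main2, against 85.0 and 82.4 in the B gate. The 8 B markers summed to 296 and 281 CPM in the T gate, against 9647 and 9626 in the B gate. Markers of other cells were uneven between libraries, since the T gate held 2246 CPM of erythroid markers in Main1 against 177 in Main2, and 246 of plasma markers in Main1 against 1522 in Main2. In the plasma gate the B markers summed to 871 and 1025 CPM, with Pax5 and Bank1 at 0 UMIs. No doublet caller was run.

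Ptprc RNA was present in the T, NK, myeloid and B gates at levels not called different and was low in the plasma and erythroid gates. In Main1 and Main2 it had 701 and 717 CPM in the T gate, 1054 and 905 in the NK gate and 645 and 536 in the myeloid gate, against 596 and 571 in the B gate. The plasma gate had 60.8 and 26.5 CPM (9 UMIs in all), and the erythroid gate 14.5 and 21.42 (3 UMIs in all), both below the B gate in each library. Against the B gate, Ptprc fell by 2.85 on the log2 scale in the plasma gate (SE 0.420, adjusted p = 7.03e-10, edgeR quasi-likelihood test with Benjamini-Hochberg adjustment over 9576 genes). It fell by 4.54 in the erythroid gate (SE 0.545, adjusted p = 5.77e-15). As a plain ratio of CPM, the erythroid gate had 0.0318 of the B-gate level, with an exact 95% interval of 0.00655 to 0.0929 that covers counting error only. For T, NK and myeloid droplets no difference was called: the log2 fold over B was 0.22 (adjusted p = 0.228), 0.25 (adjusted p = 0.573) and 0.09 (adjusted p = 0.682) in the edgeR fit, with 95% intervals of -0.04 to 0.47, -0.14 to 0.65 and -0.18 to 0.36. Among droplets under 4000 UMIs, T and myeloid droplets passed the test, at 0.34 (adjusted p = 0.0260) and 0.37 (adjusted p = 0.0143).

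These calls stand against the share of all tested genes that edgeR called in either direction, which was 27.6% for T, 8.09% for NK, 33.7% for myeloid, 10.4% for plasma and 16.2% for erythroid droplets, each against B. Scaling matters for small gates of uneven content. The median log2 fold of all genes against B was -0.44 in NK, -1.06 in plasma and -1.60 in erythroid droplets. With total UMIs as the only scaling it was 0.04, -1.96 and -1.99, and Ptprc was then at 0.75, -3.77 and -4.96. Ptprc lay below the median of all genes in plasma and erythroid droplets under both scalings. The share of called genes that were higher also moved with total UMIs only: it was 67.5% against 37.5% for NK and 8.20% against 34.5% for plasma. Leaving out Main1 or Main2 put the plasma value at -3.49 or -2.39.

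**Figure D2:**
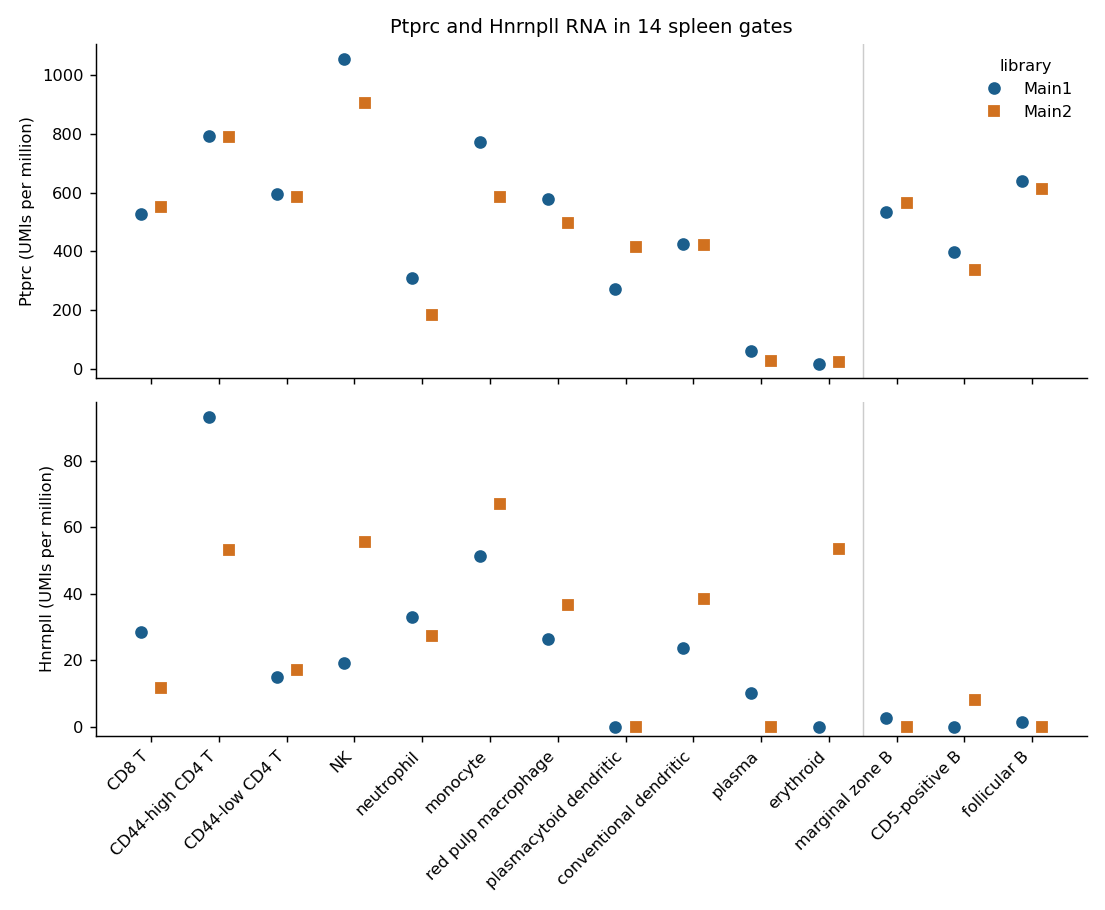
Ptprc (top) and Hnrnpll (bottom) in CPM for 14 gates, with 1 point per library (Main1 circles, Main2 squares) and the B-cell gates right of the line. Ptprc is at 1054 and 905 in NK and at 14.5 and 21.42 in erythroid droplets, and Hnrnpll is at most 7.95 in the B-cell gates.

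Droplets with at least 1 Ptprc UMI were 79.5% of T, 81.5% of NK, 74.2% of myeloid and 25% of plasma droplets, against 64.1% of B droplets (exact 95% interval 62.8 to 65.4%). In erythroid droplets, which should lack CD45, the share was 7.89% (1.66 to 21.38%), at a median of 3012 UMIs against 1655.5 in the B gate. Thinned to 1000 UMIs each, the shares were 52.1%, 66.2%, 47.6% and 9.38% in T, NK, myeloid and plasma droplets, against 44.4% in B and 2.63% in erythroid droplets.

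In raw counts the CD45 antibody was higher on T droplets and lower on plasma and erythroid droplets than on B droplets. Its median was 599 and 690 counts per droplet on T, 389 and 545 on NK and 343 and 394 on myeloid droplets of Main1 and Main2, against 405 and 418 on B droplets. Plasma droplets had 145 and 111.5 counts, and erythroid droplets had 6 in each library. Plasma and erythroid medians were therefore below those of B droplets in both libraries, as Ptprc RNA was. In limma on mean log2(count + 1), CD45 fell by 1.70 in plasma (SE 0.199, adjusted p = 3.99e-14) and differed by -5.83 in erythroid droplets (adjusted p = 5.88e-63), against B. It was 0.85 higher on T droplets (SE 0.199, adjusted p = 4.45e-05), a call that was lost among droplets under 4000 UMIs (0.48, adjusted p = 0.0983) and with marker UMIs as the only gate (0.70, adjusted p = 0.107). No difference was called for NK (0.12, 95% interval -0.27 to 0.51, adjusted p = 0.571) or myeloid droplets (-0.25, interval -0.64 to 0.14, adjusted p = 0.215) in limma. With counts taken relative to all antibodies of the droplet, CD45 on NK droplets was higher by 1.198 (adjusted p = 1.12e-06), and on T droplets by 0.68 (adjusted p = 0.000418). On the same scale plasma droplets were at -0.78 (adjusted p = 0.000110), a smaller fall than in raw counts. Antibody counts in all were 918 and 1123 on NK and 907 and 719.5 on plasma droplets, against 3380 and 3035 on B droplets. Per 1000 antibody counts of the droplet, median CD45 was 455 and 494 on NK and 146 and 182 on plasma droplets, against 124 and 140 on B droplets, so the order of the gates depends on this scaling.

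B220 was lower in each of the other 5 gates than in the B gate. Its median was 30 and 27 counts on T, 22 and 26 on NK, 25 and 26 on myeloid, 23.5 and 17 on plasma and 18 and 14 on erythroid droplets, against 586 and 570 on B droplets. No gate median overlapped that of B droplets. The limma log2 difference from B was -4.17, -4.21, -4.11, -4.53 and -5.13 for T, NK, myeloid, plasma and erythroid droplets (SE 0.201 each, adjusted p from 9.08e-56 to 2.58e-44). The panel as a whole differed widely too: limma called 76.7% of antibodies for T, 70.0% for NK, 73.3% for myeloid, 70.0% for plasma and 50% for erythroid droplets. In T droplets, B220 was at -4.17 while Ptprc RNA was not called different and CD45 was higher by 0.85. In plasma droplets B220, CD45 and Ptprc were all lower, at -4.53, -1.70 and -2.85 on their log2 scales. A further 26 droplets met both the plasma and the B gate and had been left out. With them in the plasma gate, an alternative added after seeing the data, the values were -3.96, -1.19 and -2.45. Relative to all antibodies of the droplet, B220 was at -3.14 to -4.35 in the 5 gates. Erythroid droplets had 18 and 14 B220 counts although their CD45 medians were 6.

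**Figure D3:**
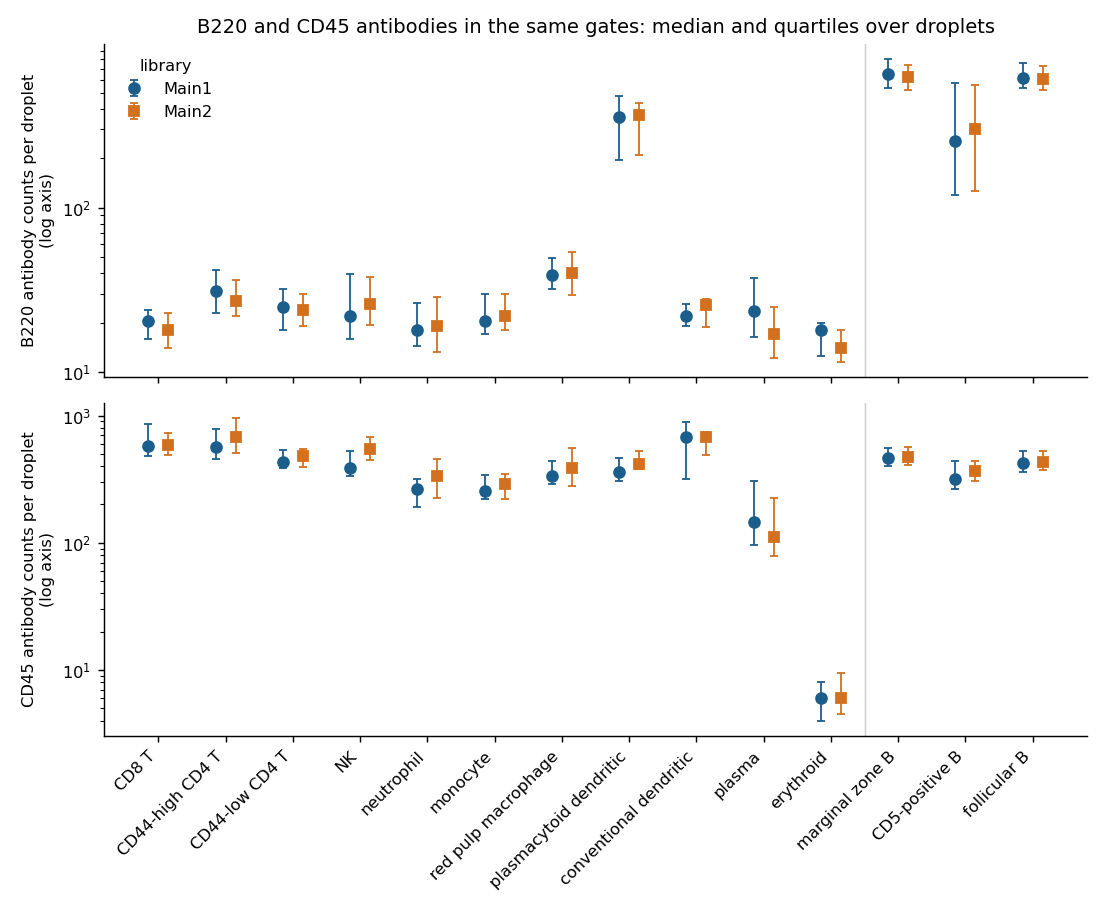
B220 (top) and CD45 (bottom) counts per droplet on log axes for the same 14 gates, as medians with quartiles over droplets and 1 marker per library. Plasmacytoid dendritic droplets, at 355 and 364 B220 counts, stand with the B-cell gates, and CD45 is at 6 counts in erythroid droplets.

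Hnrnpll RNA was scarce in B droplets and more frequent in T and myeloid droplets. It was found in 78 of 722 T droplets, 4 of 65 NK droplets and 41 of 418 myeloid droplets, against 14 of 5178 B droplets. In Main1 and Main2 it had 53 and 45 UMIs in T droplets (47.5 and 33.5 CPM), 1 and 4 in NK droplets and 20 and 25 in myeloid droplets (36.4 and 35.4 CPM), against 7 and 12 in B droplets (1.51 and 2.06 CPM), where 1 droplet held 41.7% of the UMIs of Main2. The T and myeloid levels lay above the B level in both libraries. The log2 fold over B was 4.31 for T (SE 0.356, adjusted p = 3.49e-32) and 4.31 for myeloid droplets (SE 0.441, adjusted p = 2.84e-21) in edgeR, about 19.9-fold and 19.8-fold. Both were called under each alternative with a test, for T at 4.28 to 5.16 and for myeloid at 4.21 to 4.91. Shares of droplets with a UMI were 10.8% of T and 9.81% of myeloid droplets, against 0.270% of B droplets (exact 95% interval 0.148 to 0.453%) and 7.89% of erythroid droplets, at median depths of 2421, 2652, 1655.5 and 3012 UMIs. After thinning to 1000 UMIs they were 4.43% and 3.59%, against 0.116% in B and 0% in erythroid droplets.

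The smaller gates gave no firm value for Hnrnpll. NK droplets were 3.92 above B (adjusted p = 0.00481, edgeR), from 5 UMIs, and this was not called among droplets under 4000 UMIs (3.55, adjusted p = 0.213) or with marker UMIs alone (2.61, adjusted p = 0.621). Plasma droplets, in which Hnrnpll is known to act, held 1 UMI at a median depth of 5134.5 UMIs. Their ratio to B was 2.60 with an exact 95% interval of 0.0625 to 16.35, so a difference was not detectable at this depth. Erythroid droplets held 0 UMIs in Main1 and 5 in Main2, at 4.44 above B (adjusted p = 0.000799). All 5 lay in 3 droplets of 12300 to 15669 UMIs, of which haemoglobin was 13.03 to 17.4%. Without Main2 the value was -3.81, and among droplets under 4000 UMIs it was -3.28 (adjusted p = 0.849).

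**Figure D4:**
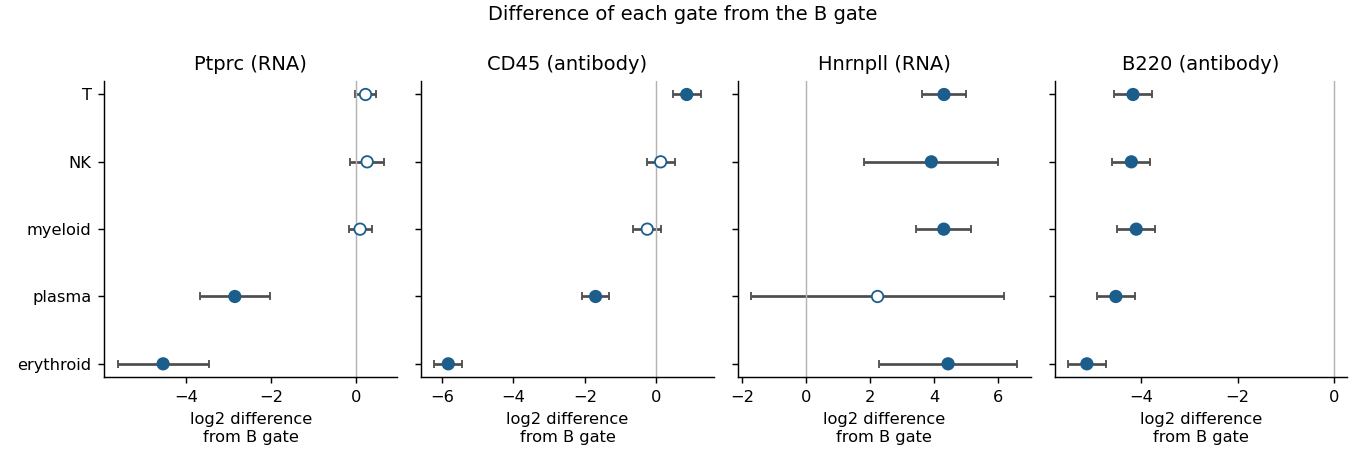
Log2 difference of each gate from the B gate for Ptprc and Hnrnpll RNA (edgeR) and for the CD45 and B220 antibodies (limma), with bars for 95% intervals and filled points where adjusted p was under 0.05. T droplets lie at 0.22 for Ptprc, 0.85 for CD45, 4.31 for Hnrnpll and -4.17 for B220.

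The 14 B droplets with an Hnrnpll UMI had a median of 643 B220 counts against 578 in the other B droplets, with 491 against 412.5 CD45 counts and 2837.5 against 1654.5 UMIs. T droplets with an Hnrnpll UMI had 33 B220 counts against 27.5 in T droplets without one, 918.5 against 622 CD45 counts and 3548 against 2314.5 UMIs. Depth moved with detection in both gates, and its part in these differences was not tested.

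Within the B gate, CD5-positive droplets had less Ptprc RNA and less B220 than follicular droplets. They were chosen by high CD5 and low IgD antibody, marginal zone droplets by high CD21/35 and low IgD, and follicular droplets by high IgD without these. Ptprc had 398 and 338 CPM in CD5-positive droplets of Main1 and Main2, against 640 and 612 in follicular droplets. Both libraries were lower, with no overlap. In edgeR Ptprc fell by 0.73 on the log2 scale (SE 0.227, adjusted p = 0.0298 over 8094 genes, of which 4.78% were called). The call was lost with total UMIs only (-0.77, adjusted p = 0.0927) and without the library term (-0.73, adjusted p = 0.0543). B220 had a median of 255 and 301 counts in CD5-positive droplets, against 611 and 607.5 in follicular droplets, and fell by 1.38 in limma (SE 0.186, adjusted p = 1.13e-06, with 33.3% of antibodies called). Its quartiles were wide, 119 to 573 counts in Main1 and 126.25 to 559.5 in Main2, and 63.8% and 71.2% of the droplets were B220-positive, at 145 or 147 counts and above, against 100% of follicular droplets.

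No CD45 difference was called in the same droplets. The median was 319 and 364.5 counts in CD5-positive droplets, against 421 and 432.5 in follicular droplets, a limma difference of -0.30 (adjusted p = 0.132) that passed the threshold, at -0.41 (adjusted p = 0.0293), relative to all antibodies of the droplet. The median ratio of B220 to CD45 counts, 1 added to each, was 0.750 and 0.762 in CD5-positive droplets, against 1.46 and 1.39 in follicular droplets. Hnrnpll had 0 and 2 UMIs in CD5-positive and 2 and 0 in follicular droplets. Markers of other cells also moved with the CD5 gate: red pulp macrophage markers summed to 615 and 75.5 CPM in it, against 101 and 51.2 in follicular droplets, and monocyte markers to 286 and 728, against 247 and 133. Their part in the result was not tested. Marginal zone droplets did not differ detectably from follicular droplets in Ptprc (-0.03, 95% interval -0.42 to 0.37, adjusted p = 0.983 in edgeR, with 4.99% of genes called). Nor did they in B220 (-0.01, interval -0.38 to 0.35, adjusted p = 0.945) or CD45 (0.08, interval -0.23 to 0.39, adjusted p = 0.834) in limma, with 20.0% of antibodies called.

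Hnrnpll UMIs were more frequent in CD4 T droplets with high CD44, an adhesion receptor raised on antigen-experienced T cells, than in those with low CD44. CD44-high droplets had 27 and 14 UMIs (93.2 and 53.4 CPM) in Main1 and Main2, against 3 and 3 (15.1 and 17.2 CPM) in CD44-low droplets. The levels did not overlap, at 18.5% of CD44-high and 3.06% of CD44-low droplets with a UMI and 8.21% and 2.04% after thinning to 1000 UMIs. The log2 fold was 2.07 (SE 0.626), which missed the threshold over all genes (adjusted p = 0.0639, edgeR, with 1.4% of genes called) and passed it with total UMIs only (2.17, adjusted p = 0.0488). Ptprc had 794 and 789 CPM in CD44-high droplets, against 594 and 585 in CD44-low droplets, a log2 fold of 0.33 that was not called (adjusted p = 0.825). CD45 had 569 and 678 counts in CD44-high droplets, against 434 and 483 in CD44-low droplets, and was higher by 0.55 in limma (adjusted p = 0.00979, with 23.3% of antibodies called). Relative to all antibodies of the droplet that difference was 0.07 (adjusted p = 0.845). CD44-high droplets also had more antibody counts in all, 3331.5 and 3725 against 1989 and 1945, and more UMIs, 2274 and 2254 against 1799 and 1795. Plasma cell markers summed to 269 and 2508 CPM in CD44-high droplets, against 222 and 390 in CD44-low droplets, and erythroid markers to 186 and 191, against 11741 and 224. Their part in these results was not tested.

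In CD8 droplets no Ptprc difference from CD4 droplets was called. They had 529 and 552 CPM, and the log2 fold over the mean of both CD4 groups was -0.29 (95% interval -0.73 to 0.15, adjusted p = 0.907, edgeR, with 0.815% of genes called). B220 was 20.5 and 18 counts on CD8 droplets, against 31 and 27 on CD44-high and 25 and 24 on CD44-low CD4 droplets. It fell by 0.44 in limma (adjusted p = 0.0465, with 23.3% of antibodies called), a call lost without the library term (adjusted p = 0.0812) and relative to all antibodies of the droplet (-0.38, adjusted p = 0.0559). The erythroid gate had 18 and 14 counts. Plasma cell markers summed to 200.003 and 6371 CPM in the CD8 droplets, and their part in these values was not tested.

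Plasmacytoid dendritic droplets, chosen by Ly6C and marker genes and known to carry B220 in the mouse, stood apart from conventional dendritic droplets. B220 had 355 and 364 counts on the 19 and 21 plasmacytoid droplets, against 22 and 25.5 on the 9 and 16 conventional dendritic droplets, and was higher by 3.53 in limma (SE 0.186, adjusted p = 9.83e-15, with 43.3% of antibodies called). CD45 had 363 and 414 counts on plasmacytoid droplets, against 674 and 675 on conventional dendritic droplets, and fell by 0.48 (adjusted p = 0.0123). Ptprc had 272 and 415 CPM in plasmacytoid droplets, against 425 and 422 in conventional dendritic droplets, and no difference was called (-0.50, 95% interval -1.24 to 0.24, adjusted p = 0.635, edgeR, with 3.46% of genes called). Hnrnpll had 0 UMIs in 40 plasmacytoid droplets, which allows up to 26.0 CPM, against 4 UMIs in 25 conventional dendritic droplets. A level as low as that of B droplets was not detectable at this depth.

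Over all 14 gates, mean Ptprc ran from NK and CD44-high CD4 droplets at the top through monocytes, follicular B, CD44-low CD4, marginal zone B, CD8 and red pulp macrophages to conventional dendritic, CD5-positive B, plasmacytoid, neutrophil, plasma and erythroid droplets. The 2 libraries overlapped for 5 of 13 neighbouring pairs in this order. For Hnrnpll they overlapped for 12 of 13 pairs, so its fine order is not resolved. Monocytes, with 51.5 and 67.1 Hnrnpll CPM, and CD44-high CD4 droplets had the highest means. Neutrophils, at 309 and 182 CPM of Ptprc and 265 and 333 CD45 counts, overlapped with plasmacytoid droplets in Ptprc. Across the 14 gates, Spearman's rho between mean Ptprc and mean CD45 was 0.61, and 0.38 over the 12 gates without erythroid and plasma droplets. It was 0.39 between Ptprc and B220 over 14 gates and 0.11 over 12, and -0.40 and -0.48 between Hnrnpll and B220. The gates share libraries, depth and antibody pool, so these values describe the tables only.

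In each of the 5 contrasts with B droplets, most listed regulators of Ptprc splicing were not called. Of 16 listed regulators, all tested, 3 were higher and 1 lower in T against B droplets (14.6% and 13.1% of all tested genes), with a list median of 0.01 against -0.00 for all genes. The higher ones were Hnrnpll, Srsf2 (0.41, adjusted p = 0.0187 in edgeR), an SR protein, and Mbnl1 (0.33, adjusted p = 0.0328), a muscleblind splicing factor. In myeloid against B droplets 1 was higher, Hnrnpll, and 5 were lower (19.6% and 14.1% of all tested genes), among them Ptbp1 (-0.84, adjusted p = 0.00384), the polypyrimidine tract binding protein, and Hnrnpl (-0.69, adjusted p = 0.000728), the closest relative of Hnrnpll. The list median was -0.08 against -0.06 for all genes. In plasma against B droplets 0 were higher and 5 lower (3.57% and 6.79% of all tested genes), with a list median of -1.03 against -1.06. In erythroid against B droplets 1 was higher, Hnrnpll, and 3 were lower (16.2% of all genes called in either direction). In NK against B droplets 1 was higher, again Hnrnpll, and 1 was lower (8.09%). These Hnrnpll calls in erythroid and NK droplets rest on 5 UMIs each. Against follicular droplets, 1 of the 16 was called in CD5-positive and 1 in marginal zone droplets (4.78% and 4.99% of all genes called). In both it was Hnrnpa1, another hnRNP known to act on splice sites. It was higher in CD5-positive (0.56, adjusted p = 0.0322) and in marginal zone droplets (0.48, adjusted p = 0.0288, edgeR).

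The kinases that CD45 acts on differed between T and B droplets in both directions. Of 14 tested genes of the Src-family and proximal signalling list (15 of 16 measured), 5 were higher and 8 lower in T against B droplets (14.6% and 13.1% of all tested genes). Lck, the Src-family kinase of T cells, had 664 and 653 CPM in T droplets, against 53.9 and 50.9 in B droplets (log2 fold 3.58, adjusted p = 5.57e-164 in edgeR). Blk, the B-lymphoid kinase, had 6.27 and 8.18 in T droplets, against 162 and 175 in B droplets (-4.58, adjusted p = 5.25e-96). Zap70 and Syk, the downstream kinases of the T- and B-cell receptors, had log2 folds of 4.72 and -4.15. In myeloid droplets 4 were higher and 7 lower (19.6% and 14.1% of all tested genes), with Fgr, a myeloid Src-family kinase, at 3.34 and Ptprcap, which encodes a CD45-associated protein, at -2.84 (adjusted p = 1.33e-59). Ptprcap had 122 and 111 CPM in myeloid droplets, against 867 and 890 in B droplets, while the log2 fold of Ptprc was 0.09. Within B droplets, Ptpn22, a phosphatase that opposes Src-family kinases, was higher in CD5-positive (2.82, adjusted p = 1.197e-16) and marginal zone (2.68, adjusted p = 6.46e-23) than in follicular droplets.

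The remaining lists gave the following counts. Of 5 measured receptor-type phosphatases other than CD45 (9 listed), 4 were higher in myeloid against B droplets (19.6% of all tested genes), led by Ptpro (5.94, adjusted p = 2.11e-30). Ptprj, also called CD148, which acts on Src-family kinases as CD45 does, was higher in marginal zone than in follicular droplets (2.19, adjusted p = 3.69e-08). Of 9 tested glycan and lectin genes, 2 were higher and 2 lower in T against B droplets (14.6% and 13.1% of all tested genes), with Lgals1, a galectin that binds CD45 glycans, at 3.71 and Cd22, a sialic acid receptor of B cells that binds CD45, at -4.35. Cd22 had 101 and 115 CPM in CD5-positive droplets, against 248 and 221 in follicular droplets (-1.05, adjusted p = 0.000466). Of 8 plasma cell genes, 4 were higher and 3 lower in plasma against B droplets (3.57% and 6.79% of all tested genes), with Xbp1 at 5.47 and Sdc1 at 6.11. Sdc1, Xbp1, Prdm1 and Irf4 are also markers that chose the plasma gate, so their direction was built in. Pax5 and Ebf1, of the same list, are markers that chose the B gate, so lower values in plasma droplets were built in too.

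Within the B gate, droplets in the upper tercile of B220, taken at matched UMI depth, had more Ptprc RNA than those in the lower tercile. Ptprc had 661 and 643 CPM in B220-high droplets of Main1 and Main2, against 518 and 505 in B220-low droplets. The levels did not overlap. The log2 fold was 0.32 (SE 0.0606, adjusted p = 0.00109 in edgeR over 7772 genes, of which 10.4% were called), and it was 0.28 for CD45 terciles (SE 0.0636, adjusted p = 0.000220 over 7786 genes, with 12.2% called). The CD45-high droplets had 649 and 628 CPM, against 520 and 499 in CD45-low droplets. These fits have 1 residual degree of freedom, and without the library term the adjusted p was 0.0786 for B220 and 0.127 for CD45. Median antibody counts in all were not matched, at 4469 and 3775 in B220-high, against 2560 and 2395 in B220-low droplets. In limma, IgD rose more than B220 between the B220 terciles (2.09 against 1.31). Between the CD45 terciles, IgD (1.95) and B220 (1.15) rose more than CD45 itself. With terciles by log-ratio within each droplet, the Ptprc fold was 0.27 for B220 and 0.21 for CD45. The part of wider staining in the Ptprc difference was not tested. Hnrnpll had 2 and 1 UMIs in B220-high droplets, against 4 and 10 in B220-low droplets, under the 50 UMIs set for a test.

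**Figure D5:**
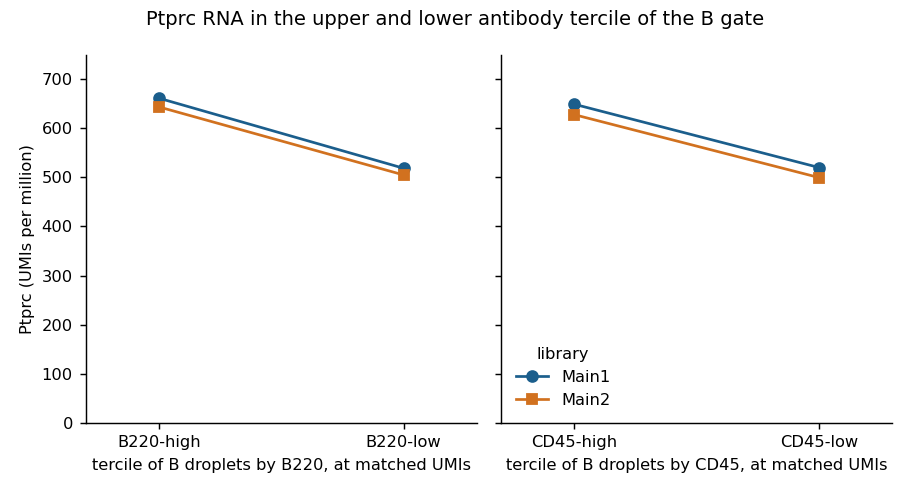
Ptprc in CPM in the upper and lower tercile of B droplets by B220 (left) and CD45 (right), with 1 line per library. B220-high droplets are at 661 and 643, above B220-low droplets at 518 and 505.

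The makeup of the terciles differed, and within follicular droplets no Ptprc difference was called. Follicular droplets were 42.0% and 47.1% of B220-high, against 16.4% and 17.2% of B220-low droplets, and CD5-positive droplets were 0.789% and 0.722%, against 7.53% and 6.35%. Marginal zone droplets were 6.32% and 6.39%, against 7.27% and 11.0%, and the rest of each tercile lay in no subset. Within the follicular gate, Ptprc had 635 and 617 CPM in B220-high droplets, against 639 and 657 in B220-low droplets. The fold there was -0.06 (SE 0.0984, adjusted p = 0.902 in edgeR) for B220 and -0.14 (SE 0.111, adjusted p = 0.692) for CD45 terciles, on 319 and 457 against 124 and 165 droplets for B220. In the marginal zone gate Ptprc had 550 and 776 CPM in B220-high droplets, against 500 and 463 in B220-low droplets. In the CD5-positive gate it had 455 and 663 CPM in B220-high droplets, from 5 and 7 UMIs, against 392 and 328 in B220-low droplets. The part of subset makeup in the Ptprc difference was not tested. Markers of other cells moved with the terciles. Myeloid markers summed to 973 and 1026 CPM in B220-high, against 1481 and 1594 in B220-low droplets, with 8 of 8 tested ones lower. Monocyte markers, 3 of 3 tested ones lower, summed to 102 and 107, against 281 and 395. Of all 7772 genes tested for the B220 terciles, 503 were called lower. Erythroid markers summed to 373 and 425 CPM in CD45-high, against 1820 and 3711 in CD45-low droplets. The part of these markers in the Ptprc difference was not tested. The follicular terciles of B220 called 34 genes, against 809 in the whole B gate, at a lower depth.

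The genes that moved with B220 in B droplets were led, on the low side, by 1810046K07Rik and Adm, which encodes the peptide adrenomedullin. Adm had 1 and 3 UMIs in B220-high droplets, against 36 and 57 in B220-low droplets (log2 fold -4.52). Bhlhe41 and Zbtb32, transcription factors known from innate-like and memory B cells, were also among the 10 genes with the largest fall, with 3 and 9 UMIs in B220-high against 108 and 119 in B220-low droplets (-4.28), and with 2 and 4 against 46 and 41 (-3.87). The others of these 10 were Pdlim1, Dnase1l3, Iglv2 and the haemoglobin genes Hba-a1, Hba-a2 and Hbb-bt. For these last genes 1 droplet held 20.6 to 23.1% of all UMIs of the B gate, and erythroid markers summed to 383 and 381 CPM in B220-high, against 1800 and 3721 in B220-low droplets.

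On the high side the changes were smaller. The 10 named genes ranged from 1.25 to 1.94 and included Rfx1, a regulator of MHC class II promoters, at 1.94, Aff4, a scaffold of the transcription elongation complex, at 1.27, and Trim59 at 1.25 with 100 and 117 UMIs in B220-high against 37 and 50 in B220-low droplets. Cd22 was higher with B220 (0.54, adjusted p = 5.86e-05 in edgeR), and Lgals1 (-1.47, adjusted p = 5.73e-06) and Ptpn22 (-1.25, adjusted p = 1.4e-05) were lower. For CD45 terciles, the genes with the largest rise were Fcna, Vcam1, Slc40a1, C1qb and Hmox1, at 2.0103 to 2.31, of which Slc40a1 encodes the iron exporter ferroportin and C1qb a complement subunit. Red pulp macrophage markers, 6 of 6 tested ones higher (4.96% of all tested genes), summed to 146 and 81.5 CPM in CD45-high droplets, against 35.2 and 36.7 in CD45-low droplets. Monocyte markers went the other way, with 3 of 3 tested ones lower, at 111 and 149 CPM against 136 and 289. Of 8 tested myeloid markers, 5 were higher and 1 was lower. Among all 7786 genes tested for CD45 terciles, 386 were called higher and 566 lower. Vcam1 had 33.0% of its B-gate UMIs in 1 droplet.

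Across single droplets, Ptprc UMIs and the antibodies had positive rho in B and T droplets. It was near 0 there once Ptprc was thinned to 1000 UMIs per droplet. In the B gate Spearman's rho of Ptprc UMIs with B220 was 0.25 over 5178 droplets and with CD45 0.27. With Ptprc thinned to 1000 UMIs per droplet, rho was 0.04 and 0.03. Antibody counts were not thinned, and thinning also removes Ptprc UMIs, so the part of depth in these values was not tested. In the T gate rho with CD45 was 0.56 over 722 droplets and 0.04 after thinning, and CD45 counts had a rho of 0.77 with the droplet's total UMIs. Myeloid droplets had a rho of Ptprc with CD45 of 0.29 over 418 droplets and 0.23 after thinning, and NK droplets -0.02 over 65 droplets and -0.29 after thinning (-0.36 in Main1 and -0.21 in Main2). In the B gate the antibodies followed each other more closely than either followed the RNA: B220 and CD45 had a rho of 0.87 in the B gate, 0.57 in T droplets and 0.27 in myeloid droplets. Droplets of a gate share their library, depth and stain, so these values carry no test.

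Likeness over the 14 gates was Pearson's r of log2(CPM + 10) among genes with 200 or more UMIs, with CPM here scaled by TMM factors too. The genes most like Ptprc, among 3882, were Dock2 (0.94), Chrac1 (0.94), Mgea5 (0.94), Xpa (0.93) and Stat3 (0.93). Ptprcap had an r of 0.47 with Ptprc and ranked 1543. Those most like Hnrnpll were Glrx (0.81), Vsir (0.80), Lcp2 (0.79), S100a4 (0.76) and Smap1 (0.73), from 99 Hnrnpll UMIs in all. The gates share libraries and depth, and 14 points include the low erythroid and plasma gates.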

How the data were processed

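Spleen CITE-seq libraries of 2 sources were used, with RNA and antibody tags from the same droplets. The authors deposited whole-number counts per gene and droplet (UMIs) and per antibody and droplet, with no normalization in the values. Per the submitters' processing notes, bcl2fastq and Cell Ranger 3.0.2 were used with the mm10 build. The prefix m1 or m2 of each droplet name was taken for its source. The tables do not separate the 4 samples of a group, so each source was 1 library. Symbols came from the reference tables for 11682 of 11713 gene IDs.

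Antibodies were called positive by a 2-component Gaussian mixture on centred log-ratios (scikit-learn 1.9.0, posterior above 0.5) in each library. Gates joined these calls with marker genes and used none of Ptprc, Hnrnpll, B220 or CD45. The T gate took CD3 or TCR with 2 T markers, the B gate B-lineage antibodies with 3 B markers, the NK gate 3 NK markers with NKp46 above the 95th percentile of B droplets, the myeloid gate 3 markers with a myeloid antibody, the plasma gate 5 markers at 1% of UMIs, and the erythroid gate 10% haemoglobin with Ter119 or CD71. UMIs were summed per gate and library, genes with 50 or more UMIs over all sums were kept, and edgeR 4.0.16 (TMM, quasi-likelihood, library as block) tested them. Ptprc passed this filter everywhere and Hnrnpll in gates and subsets but not in the terciles. Mean log2(count + 1) of antibodies was tested with limma 3.58.1. Adjusted p-values are Benjamini-Hochberg over all genes or all 30 antibodies, with 0.05 as threshold. CPM are summed UMIs scaled by total UMIs, except that the likeness to Ptprc and Hnrnpll used CPM with TMM factors. On simulated counts with 200 genes changed 4-fold, 87.5% were recovered for T against B, 77.5% for marginal zone against follicular B, 96.5% for B220 terciles and 93.0% for CD45 terciles. Genes called falsely numbered 5, 1, 13 and 5 in the same order. All simulated sums had the same mean profile and dispersion, with no library effect. Recovery of smaller changes, such as those of Ptprc between terciles, was not simulated. Depths ran from 1098 to 51405 UMIs per droplet. Intervals of droplet shares and of plain CPM ratios are exact Clopper-Pearson and cover counting error only. Intervals of log2 differences came from the SE of the edgeR or limma fit.

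Each library holds every gate, so the gates of 1 library were paired by a library block in the main fit, while the replicate numbers within a source could not be followed in the tables. Named genes were the list members with the largest called change (others, such as Lck, Blk and Ptprcap, were named after their values were seen), the 5 genes most like each member, and the 10 called genes with the largest change in each direction of the terciles with the same direction in both libraries. Members and lists were chosen with earlier results of these data known. Alternatives were DESeq2 1.42.0, total UMIs only, a 10-UMI filter, no library block, gates by marker UMIs only, droplets under 4000 UMIs, other tercile definitions, log-ratios within each droplet, thinning to 1000 UMIs, and each library left out. The plasma gate with droplets also in the B gate, follicular droplets of the terciles and all alternatives of the CD45 terciles were added after seeing the data.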

Additional observations from a re-analysis of the deposited data

How the results depend on the processing

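Of 166 alternatives with a test for the 4 readouts, 141 kept direction and side of the threshold; 84 others, each without 1 library, have values only. The main fit pairs gates of the same library. Without that replicate block, Ptprc was -0.73 (adjusted p = 0.0543) in CD5-positive against follicular B and 0.32 and 0.28 in the B220 and CD45 terciles, and B220 was -0.44 in CD8 against CD4 droplets, all past the threshold only with the block; terciles called 242 and 164 genes, against 809 and 952. With DESeq2, Ptprc in CD45 terciles was 0.28 (adjusted p = 0.0786), and terciles called 118 and 106 genes. With total UMIs only, Ptprc was -0.77 in CD5-positive B and Hnrnpll 2.17 in CD44-high CD4 droplets. Under 4000 UMIs, Ptprc was 0.34 in T and 0.37 in myeloid, CD45 0.48 in T, and Hnrnpll 3.55 in NK, -3.09 in plasma and -3.28 in erythroid droplets. With marker UMIs only, CD45 was 0.70 in T, Hnrnpll 2.61 in NK and Ptprc -0.17 in myeloid droplets, and with a 10-UMI filter Ptprc was -0.0096 in myeloid droplets. With log-ratios in each droplet, CD45 was 1.20 in NK, -0.155 in marginal zone, -0.41 in CD5-positive and 0.068 in CD44-high droplets, and B220 was -0.17 in CD44-high and -0.38 in CD8 droplets, where the call was lost (adjusted p = 0.0559). Follicular terciles, added after seeing the data, gave Ptprc -0.058 and -0.14. Leaving out either library, Hnrnpll ranged from 3.02 to 4.26 in NK, -4.55 to 3.55 in plasma, -3.81 to 4.73 in erythroid, -1.86 to 4.22 in CD5-positive and -1.46 to -0.90 in CD8 droplets. Likewise Ptprc ranged from -0.00048 to 0.18 in myeloid droplets, -0.11 to 0.0018 in marginal zone droplets and 0.32 to 0.34 in B220 terciles. CD45 ranged from -0.036 to 0.28 in NK and B220 from -0.040 to 0.014 in marginal zone droplets. The cause of these changes was not tested, but values reversed for Hnrnpll rest on 5 or fewer UMIs. Few UMIs in the plasma, erythroid and NK gates limit what could be detected there, and genes called for T against B numbered 1495 with DESeq2, against 2647.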

Other observations

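A few B droplets, picked after their values were seen and given with no test, held UMIs of both Adm and 1810046K07Rik, the genes with the largest fall in B220-high droplets. There were 20 of them, 4 in Main1 and 16 in Main2, and 12 lay in the CD5-positive gate. Their median B220 was 91.5 and 69.5 counts, against 586 and 572 on the other B droplets, and 15 of 20 were below the B220 threshold. CD44 was 145.5 and 198.5 counts on them, against 39 and 35. CD45 was 225.5 and 314.5 counts, against 406 and 418, and IgD 55.5 and 36.5, against 536 and 515. Both genes were named for their fall in B220-high droplets and also fell in CD45-high droplets. Low B220 and CD45 were therefore built into this choice. Ptprc had 346 and 372 CPM in the 20 droplets, against 596 and 573 in the other B droplets, from 4 and 21 UMIs, and Hnrnpll had 0 UMIs. Bhlhe41 had 173 and 337 CPM, against 28.6 and 21.8. The median droplet held 2865.5 and 3530.5 UMIs, against 1654 and 1649.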
